A study of Mus musculus with 7 samples.

Results

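The genes described here are the axon guidance ligands and receptors, taken by symbol from the count table: semaphorins of classes 3 to 7, plexins, neuropilins, ephrins, Eph receptors, slits, Robo receptors, netrins, and the netrin receptors Dcc and Unc5. They number 69 of the 23282 entries in the table, with 35 ligand genes and 34 receptor genes in 9 families. Their RNA was measured in tumour cells sorted from glioblastoma, a malignant brain tumour, in adult mice of the C57BL/6 strain. One group, WT, came from 3 mice with wild-type tumours, and the other, Fyn-KO, from 4 mice with knockout of Fyn, a Src family tyrosine kinase. In both groups the cells were taken by flow cytometry as positive for tdTomato, a red fluorescent protein, and each tumour was sorted and made into a library independently. How the tumours were started, the promoter behind tdTomato and the altered part of Fyn were not stated in the labels. The comparison asks whether knockout of Fyn goes with other levels of these transcripts in the tumour cells.

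Axon guidance proteins are cues and receptors that attract or repel the growing tips of nerve fibres, and migrating glial progenitors and blood vessels use the same proteins. Semaphorins signal through plexins, and secreted class 3 semaphorins usually need a neuropilin as co-receptor. Ephrins bind Eph receptor tyrosine kinases on neighbouring cells and can signal in both directions, slits repel cells through Robo receptors, and netrins attract through Dcc and repel through Unc5 receptors. Fyn is known as a kinase that acts below several of these receptors, among them Dcc.

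Counts are of QuantSeq tags, read near the 3' end of polyadenylated RNA, and levels are given as counts per 1000000 counts of a library (CPM). A transcript gives a tag whatever its length, so CPM were not divided by length. Fold changes are log2, Fyn-KO minus WT, from the edgeR quasi-likelihood test over 13122 genes, with an approximate SE, and a gene is called past the threshold at a Benjamini-Hochberg adjusted p under 0.05. The libraries held 11911864 to 16371244 counts in WT and 8976745 to 10396507 in Fyn-KO. Fyn itself stood at 1039, 719.9 and 1604 CPM in WT against 105, 106, 74.5 and 190 CPM in Fyn-KO, a log2 fold change of -3.43 ± 0.51 (SE, edgeR adjusted p = 0.0121). The groups did not overlap, but Fyn tags were present in each Fyn-KO library.

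The libraries also differed in the cell types whose markers they held. The summed level of 10 oligodendrocyte progenitor markers was 9563 to 14029 CPM in WT against 170 to 1067 CPM in Fyn-KO. Markers of steroid-producing and ovarian cells (10 genes) summed to 4.46 to 285 CPM in WT, with Akr1cl, Amh, Fshr, Lhcgr and Nr5a1 at 0 there, and to 24668 to 27087 CPM in Fyn-KO. The labelled tumour cell type of the Fyn-KO libraries is at odds with their markers. Markers of mural cells and fibroblasts (9 genes) summed to 41.7, 192 and 1012 CPM in WT against 1998 to 2421 CPM in Fyn-KO. Those of lung and liver (6 genes) summed to 480 to 1261 CPM in WT against 3.73 to 16.2 CPM in Fyn-KO. In bulk RNA, fewer cells of a type and less RNA per cell cannot be told apart, and the part of these marker differences in the results that follow was not tested.

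WT libraries also differed from each other in which genes they held. Of the genes at 100 CPM or more in any WT library, 41.5% (2002 of 4827) lay under 1 CPM in another WT library, against 0.0396% (1 of 2524) for the same count in Fyn-KO. Among the axon guidance genes these counts were 7 of 18 in WT and 0 of 4 in Fyn-KO.

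Promoters of 3 genes are shown because the genes mark the main patterns: Plxna3 is the lower gene among those detected in both groups, Efnb1 is the most abundant of the higher genes, and Plxnc1 had no count in any WT library. Each is the 250 bases before the RefSeq start on build GRCm38.p6, 5′ to 3′ on the gene's strand, with CG dinucleotides, the sites of DNA methylation, in capitals. The window of Plxna3 is chrX:74328816-74329065 (plus strand, 12 CG), that of Efnb1 chrX:99135811-99136060 (plus strand, 13 CG) and that of Plxnc1 chr10:94944846-94945095 (minus strand, 22 CG). All 3 lie outside the gene as GENCODE M21 annotates it.
Plxna3: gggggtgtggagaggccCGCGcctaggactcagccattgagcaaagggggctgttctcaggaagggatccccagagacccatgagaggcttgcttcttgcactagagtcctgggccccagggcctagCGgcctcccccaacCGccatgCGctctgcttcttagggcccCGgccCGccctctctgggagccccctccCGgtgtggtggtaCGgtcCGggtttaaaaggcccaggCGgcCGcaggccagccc
Efnb1: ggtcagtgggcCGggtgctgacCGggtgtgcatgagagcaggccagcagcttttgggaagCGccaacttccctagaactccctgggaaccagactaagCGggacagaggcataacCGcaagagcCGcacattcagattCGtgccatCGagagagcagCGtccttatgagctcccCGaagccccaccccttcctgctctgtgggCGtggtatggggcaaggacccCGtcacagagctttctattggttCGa
Plxnc1: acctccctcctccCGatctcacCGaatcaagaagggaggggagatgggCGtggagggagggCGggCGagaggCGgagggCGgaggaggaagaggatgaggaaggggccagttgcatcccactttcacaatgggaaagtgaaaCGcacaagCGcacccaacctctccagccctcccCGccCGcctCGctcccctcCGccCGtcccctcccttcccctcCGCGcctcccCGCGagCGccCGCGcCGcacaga
Of the 69 genes, 59 had 75 RefSeq promoters of 300 bases with a median of 19 CG dinucleotides, against 20 in the promoters of all genes tested. The letters ACAAAG, the core that SOX factors bind, stood on either strand in 13.3% of these promoters and in 13.8% of those of all genes tested. AAGGTCA, a site of NR5A receptors, stood in 5.33% and 3.30%. ACAAAG stood in 2 of the 17 promoters of higher members and in 0 of the 5 of lower members, against 14.6% and 17.8% of those of all higher and all lower genes. AAGGTCA stood in 0 of 17 and 1 of 5, against 3.78% and 2.81%, and no difference from those shares was tested.

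More axon guidance genes were detected in Fyn-KO, as was the case for all genes, and together they summed to less. The number with at least 1 count was 30, 36 and 40 per WT library and 53, 53, 58 and 57 per Fyn-KO library, so the groups did not overlap. As a share of the 69 that is 43.5% to 58.0% in WT and 76.8% to 84.1% in Fyn-KO, where of all 23282 entries 33.2% to 42.6% had a count in WT and 58.1% to 62.5% in Fyn-KO. With every library thinned to 8976745 counts it was 29, 34 and 38 in WT and stayed at 53, 53, 58 and 57 in Fyn-KO. The summed level of all 69 was 3562, 2052 and 3383 CPM in WT against 1354, 1353, 1419 and 1557 CPM in Fyn-KO. Sema5a or Unc5c was the most abundant member in each WT library, and Nrp1 or Efnb1 in each Fyn-KO library. Of the 69, 61 had a count in some library, 12 had counts in Fyn-KO only (19.7%, against 23.6% of the 16599 entries with a count), and 0 had counts in WT only. Ntn4, Ntn5, Epha6, Epha8, Epha10, Efna3, Robo3 and Unc5d had no counts at all.

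**Figure D1:**
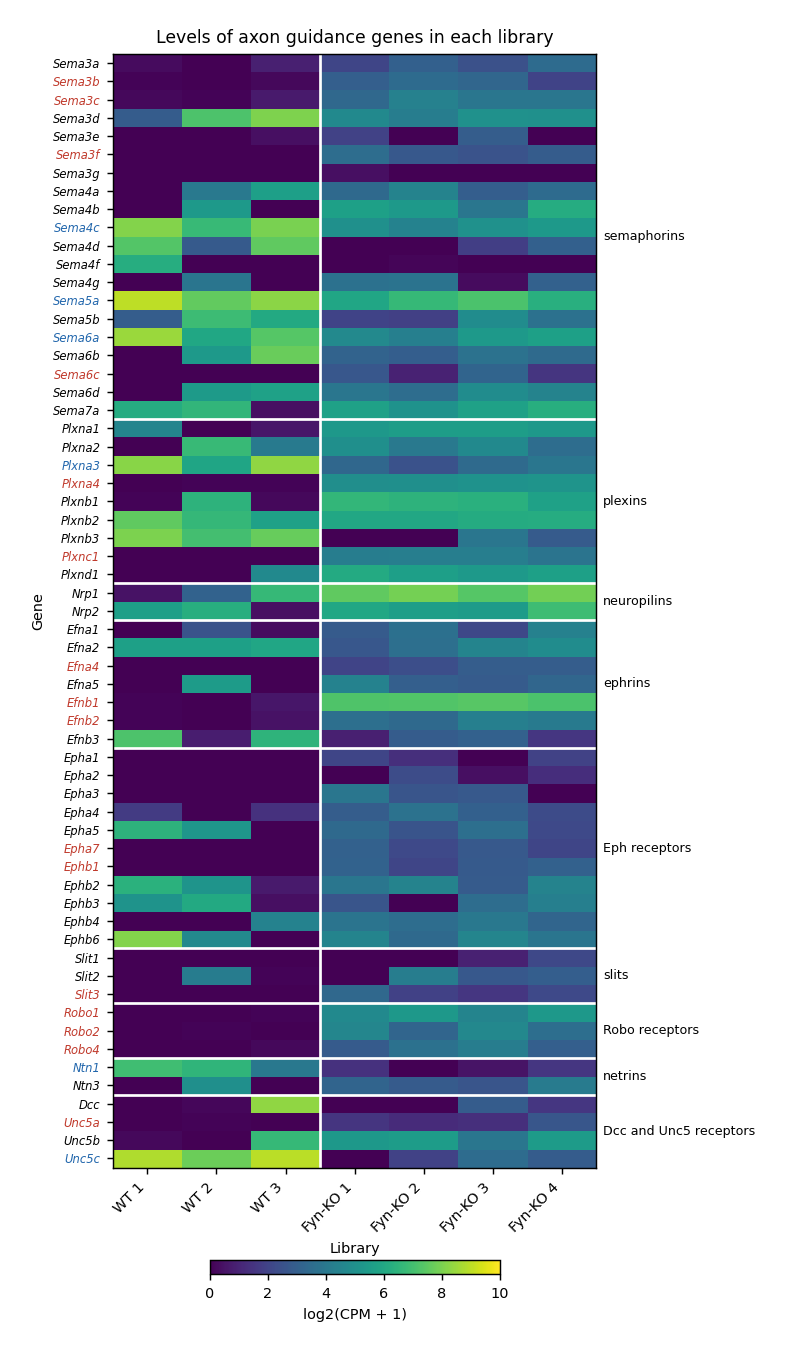
Levels of the 61 axon guidance genes with a count, as log2 of CPM plus 1 (colour), in the 3 WT and 4 Fyn-KO libraries (columns), ordered by family. Names in red are higher and names in blue lower in Fyn-KO past the threshold, and dark cells are at or near 0, as in WT for the 12 genes with counts in Fyn-KO only.

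Of the 56 members tested, 16 were higher in Fyn-KO, 6 were lower and 34 did not pass. That is 28.6% higher and 10.7% lower, where 19.0% and 3.51% of all genes tested were called. The higher members were Sema3b, Sema3c, Sema3f, Sema6c, Efna4, Efnb1, Efnb2 and Slit3 among the ligands, and Plxna4, Plxnc1, Epha7, Ephb1, Robo1, Robo2, Robo4 and Unc5a among the receptors. The lower members were the ligands Sema4c, Sema5a, Sema6a and Ntn1 and the receptors Plxna3 and Unc5c. The median log2 fold change of the tested members was 0.74, and also 0.74 with genes at 0 in WT set to their bound, against 0.45 for all genes. The CPM ranges of the groups were apart for 21 higher members (37.5%, against 30.1% of all genes) and 8 lower members (14.3%, against 7.32%).

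The higher calls and the lower calls rest on unlike data. None of the 16 higher members reached 10 counts in a WT library, and 7 of them had no WT count at all, while each of the 6 lower members reached 10 counts in some Fyn-KO library. All genes showed the same contrast: of the 2493 higher genes, 93.9% were below 10 counts in every WT library and 51.2% were without a WT count, while 0.868% of the 461 lower genes were below 10 counts in every Fyn-KO library. Among the 22 members detected in both groups (at least 10 counts in 2 or more WT and 3 or more Fyn-KO libraries), edgeR called 0 higher and 1 lower, which was Plxna3 (0.807% and 2.26% of 6446 genes). At an unadjusted p under 0.05 these counts were 0 and 6. None of the 16 higher members met these count limits, and neither did Ntn1, so their calls were not tested in this fit. Over all tested members limma-voom called 0 higher and 3 lower, with 7 and 8 at an unadjusted p under 0.05. DESeq2, counted over 51 members, called 19 and 9. Over all genes limma-voom called 24 higher and 320 lower and DESeq2 3564 and 918, against 2493 and 461 by edgeR. The members that DESeq2 called and edgeR did not were Sema3a, Epha1 and Epha3 on the higher side and Sema4d, Plxnb3 and Efnb3 on the lower side. Without Fyn-KO replicates 3 and 4 edgeR called 5 higher and 1 lower, an alternative chosen after seeing the data. These replicates held the most progenitor marker RNA in that group. Calls among all genes fell too in that fit, from 2493 to 749 higher and from 461 to 115 lower. Only Fyn-KO replicates 1 and 2 were left in it, and the part of progenitor RNA in the loss was not tested. Without Fyn-KO replicate 1, or without replicate 4, 3 members were lower, and lower calls among all genes also fell below 461.

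**Figure D2:**
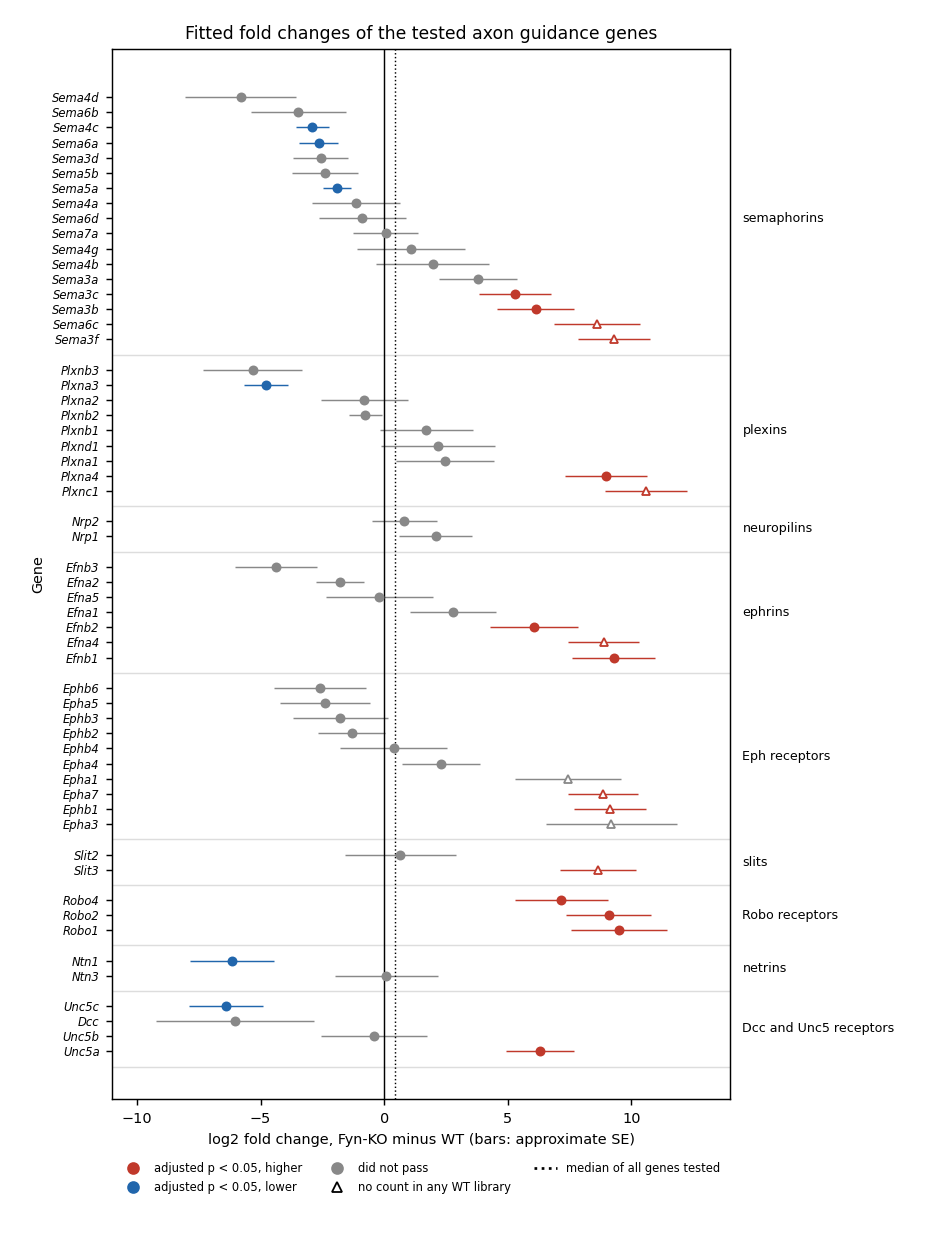
Log2 fold change (Fyn-KO minus WT) of each of the 56 tested members with its approximate SE, by family, with the median of all genes, 0.45, as a dotted line. Red marks are the 16 higher and blue marks the 6 lower members, grey marks did not pass, and open triangles mark genes without a WT count, whose fitted size is not set by the counts.

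Among secreted class 3 semaphorins, ligands of neuropilin and plexin complexes, 3 of 5 tested members were higher and edgeR called 0 lower (1 lower at an unadjusted p under 0.05, and 0 by DESeq2 and limma-voom). Sema3f (chromosome 9, 107681500 to 107710475) was without WT counts and reached 10.9, 5.67, 4.93 and 6.57 CPM in Fyn-KO. The Fyn-KO mean of 7.01 ± 2.66 CPM (SD, n = 4) was at least 27.8-fold higher, with each WT library set to a floor of 3 counts (0.252 CPM), with an edgeR adjusted p of 0.0121. Sema3c stood at 0.157, 0.0611 and 0.672 CPM in WT against 9.48, 19.9, 14.1 and 14.4 CPM in Fyn-KO, and the ratio of pooled counts was 54.6 (95% exact counting interval 30.3 to 110). Its log2 fold change was 5.28 ± 1.46 (edgeR adjusted p = 0.0330). Sema3b, a neighbour of Sema3f on chromosome 9, had 3 WT counts over the 3 libraries and 281 in Fyn-KO, a ratio of 101.5 (95% exact counting interval 34.4 to 495). Its edgeR adjusted p was 0.0228. The Sema3c call was lost when WT replicate 1 or any of Fyn-KO replicates 1, 2 and 4 was left out (edgeR adjusted p 0.0546 to 0.0690), and the Sema3b call without WT replicate 1 (0.0560).

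Sema3d, the class 3 semaphorin with the highest mean level in both groups, ran the other way without passing the test. It stood at 147 and 265 CPM in WT replicates 2 and 3 and at 6.5 CPM in WT replicate 1, with 25.7, 18.1, 32.6 and 31.3 CPM in Fyn-KO (log2 fold change -2.57 ± 1.11, edgeR adjusted p = 0.149). WT replicate 1 lay below the Fyn-KO libraries and the other WT libraries above them, and without WT replicate 1 Sema3d was past the threshold (-3.14, edgeR adjusted p = 0.0153). Sema3d made up 93.3% to 99.96% of the class 3 semaphorin tags in each WT library, and Sema3c or Sema3d led in each Fyn-KO library with 32.5% to 47.9%.

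Of the membrane-bound and other semaphorins of classes 4 to 7, 1 of 12 tested was higher and 3 were lower. Their summed level was 1473, 726 and 1281 CPM in WT against 270.0, 271, 369.5 and 388 CPM in Fyn-KO, so the groups did not overlap. Sema4c (chromosome 1, 36548639 to 36558349), a membrane ligand of B-type plexins, stood at 282, 105 and 252 CPM in WT against 31.9, 20.6, 32.6 and 41.3 CPM in Fyn-KO. Its mean was 6.74 times lower in Fyn-KO (213 ± 94.8 against 31.6 ± 8.51 CPM), with a log2 fold change of -2.91 ± 0.66 (edgeR adjusted p = 0.0147). Sema5a (chromosome 15, 32244810 to 32696341), a membrane semaphorin with thrombospondin repeats, was the most abundant semaphorin in every one of the 7 libraries. It stood at 516, 191 and 304 CPM in WT against 58.7, 102, 144 and 78.6 CPM in Fyn-KO (-1.90 ± 0.57, edgeR adjusted p = 0.0456). Sema6a, a membrane semaphorin that binds A-type plexins, stood at 363, 61.6 and 162 CPM in WT against 25.4, 18.7, 40.2 and 50.1 CPM in Fyn-KO (-2.65 ± 0.79, edgeR adjusted p = 0.0461).

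Sema4c stayed past the threshold whichever library was left out, with an edgeR adjusted p of at most 0.0454. The calls of Sema5a and Sema6a were near the threshold. Sema5a did not pass when WT replicate 1 or 3, or any of Fyn-KO replicates 1, 2 and 4, was left out (edgeR adjusted p 0.0711 to 0.121, log2 fold change -1.91 to -1.54). Of the 7 fits that left out 1 library, Sema6a passed only in that without WT replicate 2 (edgeR adjusted p = 0.00775), and otherwise stood at 0.0583 to 0.128 with a log2 fold change of -2.89 to -1.99. Sema6c, a membrane semaphorin, was the higher one: it was without WT counts and reached 5.54, 0.962, 8.32 and 1.89 CPM in Fyn-KO, which is at least 16.6-fold higher (edgeR adjusted p = 0.0157).

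Several other semaphorins were present in only some of the WT libraries, and the calls of these genes moved with a library. Sema4b stood at 40.2 CPM in WT replicate 2 and at 0 in the other two, and Sema4g at 13.8 CPM in WT replicate 2 and at 0 in the other two. In Fyn-KO Sema4b averaged 44.5 ± 24.2 CPM, above the WT level in 3 of 4 libraries, and Sema4g stood at 12.4, 12.9, 0.219 and 7.58 CPM. Neither passed with all libraries (edgeR adjusted p 0.657 and 0.818), and without WT replicate 2 both were higher (0.00517 and 0.0314). Sema6b stood at 0, 41.3 and 208 CPM in WT against 6.83 to 12.5 CPM in Fyn-KO, and was lower only without WT replicate 1 (-4.06, edgeR adjusted p = 0.0206). Sema4d, a ligand of Plxnb1 singled out after its values were seen, stood at 159.7, 6.11 and 189 CPM in WT against 0, 0, 2.63 and 7.46 CPM in Fyn-KO (edgeR adjusted p = 0.105). Sema4f, also singled out afterwards, stood at 74.4 CPM in WT replicate 1, at 0 in the other WT libraries, and had 1 count in all Fyn-KO libraries together. The remaining semaphorins, Sema3a, Sema3e, Sema3g, Sema4a, Sema5b, Sema6d and Sema7a, had WT means of 0 to 62.1 CPM and Fyn-KO means of 0.0799 to 52.8 CPM. Sema3e and Sema3g were filtered out before the test, and edgeR called none of the rest. Of these, DESeq2 called Sema3a higher (adjusted p = 0.0136, against 0.134 by edgeR). Sema3a stood at 0.235, 0 and 0.839 CPM in WT against 3.30, 7.31, 4.60 and 10.1 CPM in Fyn-KO, without overlap.

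Of 9 plexins, the receptors of semaphorins, 2 were higher and 1 was lower. Plxna3 (chromosome X, 74329066 to 74344689, plus strand), an A-type plexin that works with neuropilins, stood at 301, 57.5 and 326 CPM in WT against 9.06, 4.81, 10.1 and 14.4 CPM in Fyn-KO. The lowest WT library lay above the highest Fyn-KO library. The mean was 23.8 times lower in Fyn-KO, with a log2 fold change of -4.78 ± 0.89 (edgeR adjusted p = 0.0121). Its edgeR adjusted p was at most 0.0273 whichever library was left out and 0.0310 among genes detected in both groups, and limma-voom gave an adjusted p of 0.0504.

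A-type plexins did not move together. Plxna4 (chromosome 6, 32144268 to 32588192), another A-type plexin, had 2 WT counts over the 3 libraries and stood at 29.5, 30.2, 32.9 and 34.9 CPM in Fyn-KO, and the ratio of pooled counts was 653 (95% exact counting interval 180 to 5397, edgeR adjusted p = 0.0121). Plxna1 stood at 22.2, 0 and 0.504 CPM in WT against 39.2, 46.2, 45.9 and 39.2 CPM in Fyn-KO (edgeR adjusted p = 0.485), and was higher without WT replicate 1 (0.0375). The summed A-type level was 323, 163 and 343 CPM in WT against 96.5 to 114 CPM in Fyn-KO. Plxna3 gave 93.1% and 95.2% of it in WT replicates 1 and 3, Plxna2 64.6% of it in WT replicate 2, and Plxna1 36.1% to 47.9% of it in Fyn-KO.

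Plxnc1 (chromosome 10, 94790866 to 94944835, minus strand), the receptor of Sema7a, was without WT counts and reached 17.7, 18.6, 18.4 and 13.3 CPM in Fyn-KO, which is at least 67.4-fold higher (edgeR adjusted p = 0.0121). Its ligand Sema7a stood at 71.5, 95.5 and 0.336 CPM in WT against 51.5, 33.2, 51.2 and 75.4 CPM in Fyn-KO, overlapping between the groups (edgeR adjusted p = 0.985). Among B-type plexins edgeR called none of 3. Plxnb1 stood at 0.0783, 87.8 and 0.168 CPM in WT against 98.6, 87.1, 81.5 and 51.9 CPM in Fyn-KO, and was higher only without WT replicate 2 (edgeR adjusted p = 0.00455, against 0.638 with it). Plxnb3, singled out after its values were seen, stood at 263, 128 and 201 CPM in WT against 0, 0, 14.1 and 6.35 CPM in Fyn-KO (log2 fold change -5.32 ± 2.02, edgeR adjusted p = 0.0973). Its groups did not overlap, and it was the B-type plexin that edgeR called at an unadjusted p under 0.05 and that DESeq2 and limma-voom called after adjustment. Plxnb2 stood at 113 ± 69.0 CPM in WT against 67.3 ± 4.76 CPM in Fyn-KO (edgeR adjusted p = 0.522).

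Neuropilins, the co-receptors of class 3 semaphorins and of vascular growth factors, were not called. Nrp1 was the most abundant member in Fyn-KO at 189, 239, 162 and 236 CPM, and stood at 0.391, 7.94 and 103 CPM in WT. No WT library reached the Fyn-KO range, but the spread in WT left the log2 fold change at 2.09 ± 1.49 (edgeR adjusted p = 0.418), and at 5.87 without WT replicate 3 (0.0161). Nrp2 stood at 48.6, 75.9 and 0.336 CPM in WT against 60.9, 47.0, 44.1 and 116 CPM in Fyn-KO (edgeR adjusted p = 0.761). WT replicate 3, the WT library with the most Nrp1, had the least Nrp2. At an unadjusted p under 0.05 edgeR and DESeq2 called neither gene, and limma-voom called 1 higher.

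Ephrins, the membrane ligands of Eph receptors, included the higher member with the largest level. Efnb1 (chromosome X, 99136130 to 99148991, plus strand), an ephrin that spans the membrane and can signal back into its own cell, stood at 0.0783, 0 and 0.504 CPM in WT against 151, 156, 166 and 141 CPM in Fyn-KO. The Fyn-KO libraries lay close together (154 ± 10.5 CPM, n = 4) and the WT libraries held 7 counts in all. The ratio of pooled counts was 902 (95% exact counting interval 438 to 2245), with a log2 fold change of 9.30 ± 1.68 (edgeR adjusted p = 0.0121, at most 0.0254 whichever library was left out). Limma-voom did not call it (adjusted p = 0.180).

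Efnb2, an ephrin of arteries and neural cells, stood at 0.0783, 0 and 0.420 CPM in WT against 11.7, 9.81, 19.2 and 16.4 CPM in Fyn-KO (6.06 ± 1.77, edgeR adjusted p = 0.0416). It passed without WT replicate 2 or 3 and not without any of the others (edgeR adjusted p 0.0627 to 0.0828, log2 fold change 5.71 to 6.21). Efna4, an ephrin held by a lipid anchor, was without WT counts and reached 3.09, 4.23, 6.68 and 6.68 CPM in Fyn-KO, which is at least 20.5-fold higher (edgeR adjusted p = 0.0121). Efnb3, the third ephrin-B, stood at 147, 0.733 and 88.7 CPM in WT against 0.852, 6.44, 7.66 and 2.01 CPM in Fyn-KO. It did not pass (-4.37 ± 1.66, edgeR adjusted p = 0.0995) and was lower without WT replicate 2 (-4.95, 0.0112). The most abundant ephrin was Efnb3 in WT replicates 1 and 3, Efna2 in WT replicate 2 and Efnb1 in each Fyn-KO library. Efna1 and Efna5 were not called with all libraries (edgeR adjusted p 0.346 and 0.969) and both were higher without WT replicate 2 (0.0272 and 0.00519), the library that held 4.95 and 43.7 CPM of them. Efna2 stood at 50.6, 50.6 and 59.9 CPM in WT against 5.54, 11.5, 21.6 and 28.1 CPM in Fyn-KO without passing (edgeR adjusted p = 0.269). It was singled out after its values were seen, as an ephrin whose groups did not overlap.

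Eph receptors, the receptor tyrosine kinases for ephrins, had low levels in Fyn-KO and uneven levels in WT. Their summed level was 488, 164 and 23.4 CPM in WT against 104, 76.9, 92.1 and 84.9 CPM in Fyn-KO, overlapping between the groups. Of 10 tested, 2 were higher and edgeR called 0 lower, with 0 lower also at an unadjusted p under 0.05 and by DESeq2 and limma-voom. Epha7, a receptor of ephrin-A ligands, was without WT counts and reached 7.57, 3.66, 5.91 and 3.23 CPM in Fyn-KO, which is at least 20.2-fold higher. Ephb1, a receptor of ephrin-B ligands, was without WT counts and reached 7.78, 3.27, 6.13 and 7.58 CPM, at least 24.6-fold higher. Both had an edgeR adjusted p of 0.0121. Epha1 and Epha3 also lacked WT counts, with levels of 3.30, 1.54, 0 and 2.90 CPM and of 14.4, 5.29, 6.02 and 0 CPM in Fyn-KO. Each had 1 Fyn-KO library at 0 and did not pass with it (edgeR adjusted p 0.0548 and 0.0546). Without that library, replicate 3 for Epha1 and replicate 4 for Epha3, each did (0.0177 and 0.0212).

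Ephb6, a kinase-dead Eph receptor, had the highest WT mean of the family at 281, 25.1 and 0 CPM, and stood at 21.7, 9.71, 22.4 and 13.7 CPM in Fyn-KO (edgeR adjusted p = 0.424). Its log2 fold change of -2.58 turned to 0.71 without WT replicate 1. Epha5, a receptor of neurons, stood at 87.4, 37.1 and 0 CPM in WT against 9.59, 5.10, 11.6 and 3.56 CPM in Fyn-KO, and was lower only without WT replicate 3 (-2.98, edgeR adjusted p = 0.0444). EdgeR did not call Ephb2, Ephb3 and Epha4, and Epha2 was filtered out before the test. All of these had WT means of 0 to 39.6 CPM and Fyn-KO means of 1.43 to 15.6 CPM.

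Robo receptors were nearly absent from WT. All 3 Robo receptors with counts were higher in Fyn-KO, and their summed level was 0, 0.0611 and 0.252 CPM in WT against 55.3, 59.6, 63.6 and 57.5 CPM in Fyn-KO. Robo1 (chromosome 16, 72308306 to 73046095), a receptor of axons, had 1 WT count over the 3 libraries and stood at 25.6, 38.8, 21.7 and 39.1 CPM in Fyn-KO (edgeR adjusted p = 0.0122). Its neighbour Robo2 (chromosome 16, 73891839 to 74411825) also had 1 WT count and stood at 23.3, 8.56, 24.3 and 11.1 CPM (edgeR adjusted p = 0.0121). The pooled ratios were 1292 (95% exact counting interval 231 to 51056) and 683 (122 to 27004). Robo1 was higher in Fyn-KO replicates 2 and 4 and Robo2 in replicates 1 and 3, while their family sum varied little. Robo4, the Robo receptor of endothelium, had 2 WT counts, both in WT replicate 3, and stood at 6.39, 12.3, 17.6 and 7.24 CPM in Fyn-KO (7.17 ± 1.88, edgeR adjusted p = 0.0262).

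All 3 Robo calls held whichever library was left out (edgeR adjusted p at most 0.0482), and none passed in limma-voom. Slit3 (chromosome 11, 35121224 to 35708507), a secreted Robo ligand, was without WT counts and reached 9.48, 2.79, 1.97 and 3.68 CPM in Fyn-KO, which is at least 17.8-fold higher (edgeR adjusted p = 0.0123). Slit2 stood at 0, 17.3 and 0.0839 CPM in WT against 0, 17.8, 5.80 and 6.91 CPM in Fyn-KO (edgeR adjusted p = 0.901). Slit1 had counts in Fyn-KO replicates 3 and 4 only, at 0.876 and 3.45 CPM, and was not tested.

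**Figure D3:**
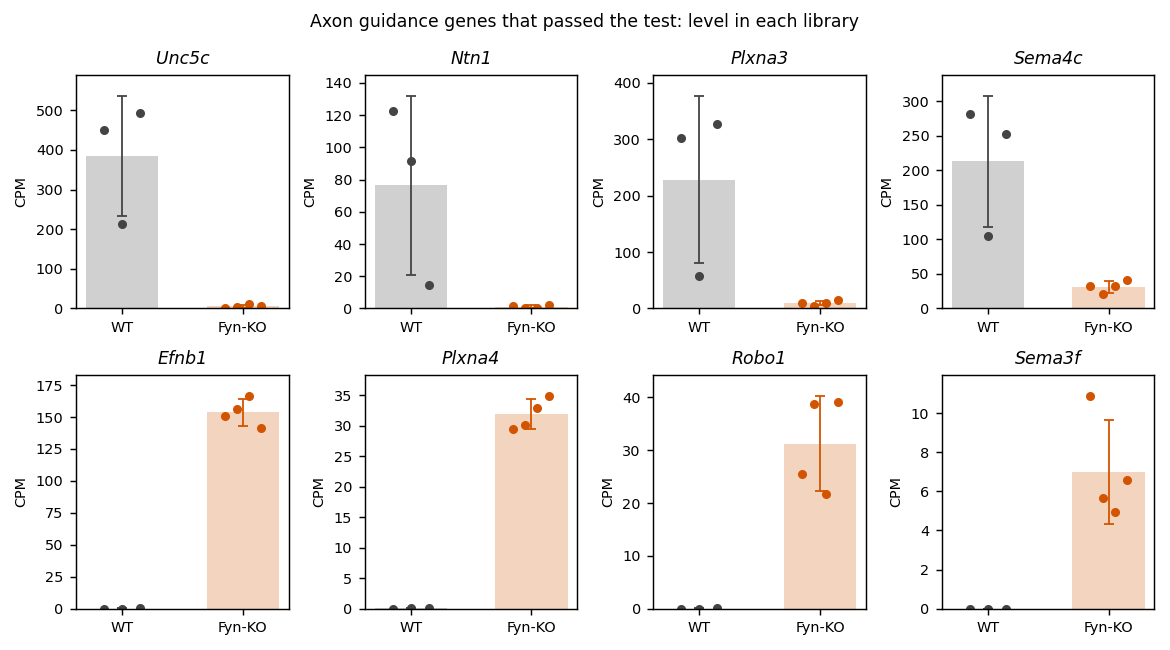
CPM of 4 lower members (top row) and 4 higher members (bottom row) in each library; points are the 3 WT and 4 Fyn-KO libraries, bars their mean and error bars 1 SD. The WT points of Efnb1, Plxna4, Robo1 and Sema3f lie at or near 0, and no panel has overlapping groups.

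Netrins and their receptors held the 2 called members with the lowest log2 fold changes, Ntn1 and Unc5c. Ntn1 (chromosome 11, 68209364 to 68400823), the secreted netrin of the developing midline, stood at 123, 91.7 and 14.9 CPM in WT against 1.70, 0, 0.438 and 2.01 CPM in Fyn-KO. The mean was 73.7 times lower in Fyn-KO, with a log2 fold change of -6.16 ± 1.72 (edgeR adjusted p = 0.0342), and 38 counts remained in all Fyn-KO libraries together. The call was lost without Fyn-KO replicate 1, 3 or 4 (edgeR adjusted p 0.0810 to 0.116, log2 fold change -6.68 to -5.83). Ntn3, the netrin with the highest level in Fyn-KO (5.25 to 16.7 CPM), stood at 0, 30.6 and 0 CPM in WT, and was higher only without WT replicate 2 (edgeR adjusted p = 0.00520, against 0.984 with it).

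Unc5c (chromosome 3, 141465216 to 141834924), a repulsive netrin receptor that can trigger cell death without its ligand, was the most abundant member in WT by mean. It stood at 451, 213 and 493 CPM in WT against 0, 2.89, 10.6 and 6.46 CPM in Fyn-KO. The mean was 77.2 times lower in Fyn-KO (385 ± 151 against 4.99 ± 4.59 CPM), with a log2 fold change of -6.39 ± 1.49 (edgeR adjusted p = 0.0159, at most 0.0476 whichever library was left out). Limma-voom also called it (adjusted p = 0.0164), while among genes detected in both groups edgeR gave an adjusted p of 0.0599. Unc5a, a related receptor of neurons, had 1 WT count over the 3 libraries and stood at 1.92, 1.35, 1.53 and 5.46 CPM in Fyn-KO, and the ratio of pooled counts was 103 (95% exact counting interval 18.0 to 4108, edgeR adjusted p = 0.0130). Unc5a did not pass without WT replicate 1 or 3 (edgeR adjusted p 0.0685 and 0.0598).

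Unc5b, the Unc5 receptor of vessels, stood at 0.157, 0 and 104 CPM in WT against 38.8, 45.2, 14.1 and 44.1 CPM in Fyn-KO. Its log2 fold change was -0.41 with all libraries (edgeR adjusted p = 0.938) and 8.70 without WT replicate 3 (0.0150). Dcc, the attractive netrin receptor that Fyn is known to phosphorylate, lies outside the rule for named genes and is given for that reason. It stood at 0, 0.122 and 325 CPM in WT against 0, 0, 6.46 and 2.01 CPM in Fyn-KO (-6.03 ± 3.20, edgeR adjusted p = 0.251). Nearly all Dcc tags came from WT replicate 3, so no difference between genotypes was detectable.

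Marker levels moved with several of these results. The endothelial list (11 genes) summed to 1.33, 20.1 and 1553 CPM in WT against 496 to 596 CPM in Fyn-KO, with Emcn at 0 in all WT libraries. Receptors of vessels were likewise highest in WT replicate 3 among the WT libraries: Nrp1, Plxnd1, Unc5b and Ephb4 stood at 103, 25.6, 104 and 20.7 CPM there. In the other WT libraries Nrp1 stood at 0.391 and 7.94 CPM and the other 3 at or below 0.157 CPM. Plxnd1, a receptor of Sema3e, stood at 68.8, 49.1, 40.0 and 49.8 CPM in Fyn-KO, and Ephb4, the venous receptor of Efnb2, at 8.58 to 15.1 CPM. With all libraries neither was called (edgeR adjusted p 0.622 and 0.943), and without WT replicate 3 both were higher (0.00778 and 0.00807). Robo4 and Nrp2 did not follow these receptors, at 0.168 and 0.336 CPM in WT replicate 3. The netrin receptor Dcc, at 325 CPM there, was also highest in that library, and the share of all genes with this pattern was not counted. The endothelial markers themselves split: Pecam1, Erg, Emcn and Tie1 stood at 0 to 6.21 CPM in WT replicate 3 and higher in each Fyn-KO library, as Robo4 did, while the other 7 markers overlapped between the groups. The part of endothelial RNA in these differences was not tested.

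Summed markers of progenitors and of other neural cells were lower in Fyn-KO, as the lower members were. Fyn-KO replicates 3 and 4 held 1067 and 476 CPM of the 10 oligodendrocyte progenitor markers, and replicates 1 and 2 held 172 and 170 CPM, with none of the 10 at 0 throughout a group. Oligodendrocyte markers (10 genes, with Ermn at 0 in both groups) summed to 2784 to 20917 CPM in WT against 99.1, 200, 690 and 380 CPM in Fyn-KO. Those of neurons (10 genes, with Nefl at 0 in both groups and Gad1 and Snap25 at 0 in WT) summed to 775 to 1129 CPM against 62.3, 60.8, 157 and 86.3 CPM. Within the neuron list Elavl3 and Map2 were called lower, while Tubb3, Dcx, Rbfox3, Syt1 and Stmn2 overlapped between the groups. The sums of both lists were thus lower in Fyn-KO, and within it higher in replicates 3 and 4, as that of the progenitor list was. Astrocyte markers (10 genes, with Aqp4 at 0 in Fyn-KO) summed to 2894 to 5020 CPM against 590 to 772 CPM, without that split in the sum. Gja1, which stood higher in each Fyn-KO library than in WT, was the largest part of the Fyn-KO sum (512, 471, 275 and 531 CPM). S100b (14.8, 22.2, 94.0 and 37.8 CPM) and Fabp7 (8.42, 2.89, 44.9 and 47.6 CPM) did split in Fyn-KO, and the other astrocyte markers did not. Replicates 3 and 4 also held more of Unc5c, Plxnb3, Sema4d, Sema5b and Dcc than replicates 1 and 2. Sema5b, like the others outside the rule for named genes, was chosen after its values were seen and stood at 2.98, 2.69, 28.5 and 12.1 CPM in Fyn-KO. Plxna3, Sema4c and Sema6a were also highest in these replicates, while Sema5a and Ntn1 did not split this way. The higher members Plxna4, Efnb2 and Efna4 were highest there too, as were uncalled members such as Sema3d and Efna2. The split was thus not particular to lower members, and its share among all genes was not counted. The part of progenitor, oligodendrocyte, neuron and astrocyte RNA in the lower calls was not tested. For the higher calls, steroid-producing, mural and fibroblast marker sums were higher in each Fyn-KO library than in each WT library, and their part was not tested.

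**Figure D4:**
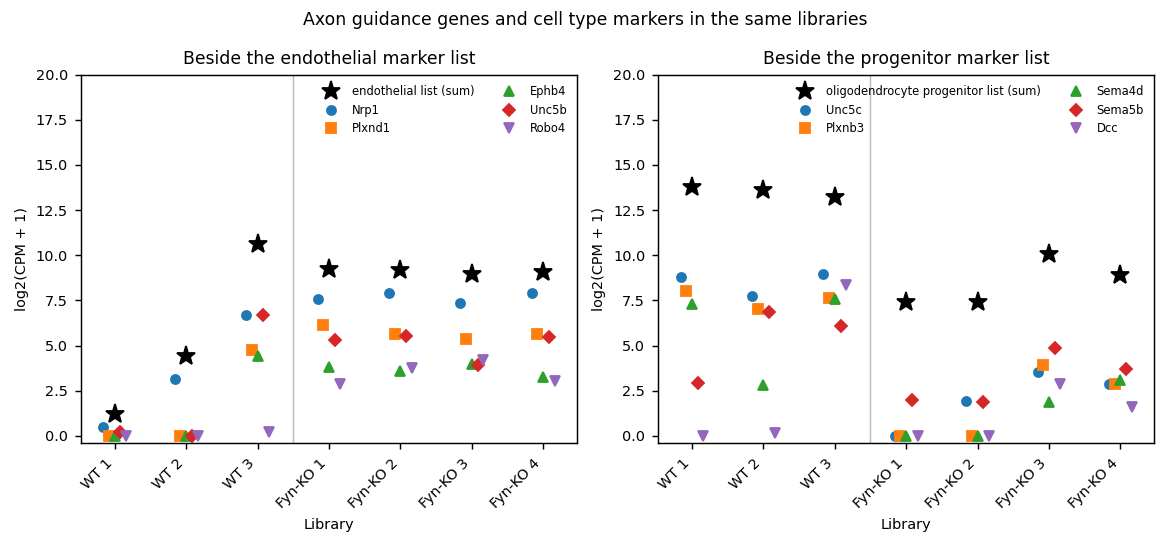
Levels of members beside a summed marker list in the same libraries, as log2 of CPM plus 1. Left, Nrp1, Plxnd1, Ephb4 and Unc5b are high in the WT library with 1553 CPM of endothelial markers, while Robo4 stands at 0.168 CPM there. Right, Unc5c, Plxnb3, Sema4d, Sema5b and Dcc stand higher in the 2 Fyn-KO libraries with 1067 and 476 CPM of progenitor markers. Other members, some of them higher in Fyn-KO, show the split on the right too.

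Genes that work with these ligands and receptors, from a list chosen with earlier results of these data known, moved in both directions. Of 64 partner genes in the table, 55 were tested, 5 were higher, 6 were lower and 44 did not pass (9.09% and 10.9%, against 19.0% and 3.51% of all genes), with a median log2 fold change of -0.86 against 0.45 for all genes. The lower ones include Fyn, the targeted gene. The part of the knockout and of the marker differences in its drop was not tested. At the cell surface, Neo1, the Dcc relative neogenin, stood at 341, 444 and 242 CPM in WT against 68.2, 91.7, 47.4 and 106 CPM in Fyn-KO (-2.16 ± 0.44, edgeR adjusted p = 0.0121). Dscam, a netrin-binding adhesion protein, stood at 199, 236 and 136 CPM in WT against 3.84, 1.15, 10.8 and 4.34 CPM in Fyn-KO (-5.22 ± 0.95, edgeR adjusted p = 0.0121). Neither overlapped between the groups.

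Inside the cell 4 partners were lower, Fyn itself and 3 regulators of the cytoskeleton. Cfl1, the actin-severing protein cofilin, stood at 1303 ± 238 CPM in WT against 285 ± 26.1 CPM in Fyn-KO (-2.28 ± 0.29). Dpysl3, a collapsin response mediator, stood at 609 ± 39.8 and 161 ± 36.2 CPM (-1.98 ± 0.35), and Pak1, a kinase below Rac and Cdc42, at 245 ± 168 and 13.1 ± 4.27 CPM (-4.33 ± 0.73). Each had an edgeR adjusted p of 0.0121. The 5 higher partners, the cell surface proteins Boc, Rgmb and Ntng1, the kinase Fes and the G protein regulator Rgs3, had no count in WT, and their Fyn-KO means were 5.01 to 13.8 CPM. The number of higher partners was 8 without WT replicate 1, 11 without replicate 2 and 9 without replicate 3, and without replicate 3 the lower ones numbered 10.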

How the data were processed

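Counts per gene were deposited by the authors as 1 table of whole-number 3' tag counts for 3 WT and 4 Fyn-KO libraries, which its name calls modified without a stated change. Per the submitters' processing notes, Bowtie2, bedtools and DESeq2 1.32.0 were used with mm10 (GRCm38); tags of a gene and its antisense partner cannot be told apart, since the strand and annotation used for counting were not stated. WT replicate 3's column is tied to its group by its name, but not to a sample beyond doubt, since that name is also another WT sample's title.

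From the counts, edgeR 4.0.16 in R 4.3.3 was run with filterByExpr (10 counts in enough libraries, 15 in all), TMM factors and the two-sided quasi-likelihood F test, adjusted over 13122 genes. The SE is approximate, from dividing the size of the log2 fold change by the root of F. CPM use the library total. A group at 0 was set to a floor of 3 counts per library (0.252 CPM in WT, 0.334 CPM in Fyn-KO), and ratios over 1 to 11 pooled WT counts were given with a 95% exact interval; both cover counting error only. P-values measure the spread between these libraries, each from its own tumour per the series text. On simulated data the script was checked for recovery of known changes.

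Genes named are Fyn, every member past the threshold, the most abundant members of each family in each group, members whose call changed without 1 library, and partners past the threshold; others are marked where they appear. The members and lists were chosen with earlier results of these data known. Coordinates are from GENCODE M21, which holds all 69 members, and promoters from RefSeq (GRCm38.p6), where those on chromosome 18 were not used. Some members on other chromosomes, among them the called Plxna4, Sema3b, Sema3f and Ntn1, also have no promoter in these counts. Alternatives were RLE factors, library sizes alone, other count filters, DESeq2 1.42.0, limma-voom (limma 3.58.1), a replicate block, leaving out libraries, thinning, and CPM without Rn45s and Malat1.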

Additional observations from a re-analysis of the deposited data

Results flagged for a closer look

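Dixon's test at the 95% level was run on each group of 4 Fyn-KO libraries, and 4 of 66 measures had a library far from the others, where chance flags about 1 in 20. Plxnc1 was lowest in Fyn-KO replicate 4 at 13.26 CPM. Unc5a was highest in the same library at 5.459 CPM. Sema3g was detected in Fyn-KO replicate 1 alone at 0.3197 CPM (3 counts), and Sema4f in Fyn-KO replicate 2 alone at 0.09619 CPM (1 count). With every other library at 0 the test flags any value. The rate of 1 in 20 thus does not hold for Sema3g and Sema4f.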

How the results depend on the processing

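Of 630 refits of 42 named members, 495 kept direction and side of the threshold, 93 lost the call, 20 gained it and 22 changed sign, none of these for a called member. Scaling (RLE factors, library sizes) left 16 higher and 6 lower members. Genes detected in both groups gave 0 and 1 (all genes 52 and 146, partners higher 0, members' median log2 fold change -1.56), and limma-voom 0 and 3 (24 and 320, partners higher 0). No higher member or higher partner of the main fit met the count limits of the former, so their calls were not tested there. Replicate numbers do not pair the libraries (correlations of deviations -0.0135, -0.0047 and -0.0227, none best with its own number); a replicate block gave 1 and 2 members, 188 and 135 genes, and 0 and 3 partners. Without Fyn-KO replicates 3 and 4, the counts were 5 and 1 members, 749 and 115 genes, and partners higher 0. DESeq2 gave 918 lower genes and 15 lower partners, and a minimum count of 50 gave 3 higher partners. Leaving out 1 library gave 13 to 22 higher and 3 to 7 lower members, 2190 to 4585 and 247 to 839 genes, and 5 to 11 and 6 to 10 partners. In every such fit 12 higher and 3 lower members stayed called. Signs turned for uncalled genes: Efna5 (block 7.16, limma-voom 1.86, without Fyn-KO replicates 3 and 4 0.14, leaving out 1 library -0.78 to 9.71), Epha5 (limma-voom 0.22), Ephb4 (leaving out 1 library -0.21 to 10.14), Ephb6 (limma-voom 1.29, leaving out 1 library -3.17 to 0.71), Ntn3 (library sizes -0.16, without Fyn-KO replicates 3 and 4 -0.25, leaving out 1 library -0.49 to 9.49), Slit2 (limma-voom -0.13, leaving out 1 library -0.16 to 6.91) and Unc5b (library sizes 0.0309, block 7.24, limma-voom 6.61, without Fyn-KO replicates 3 and 4 0.0448, leaving out 1 library -0.998 to 8.70). The cause was not tested. CPM without Rn45s and Malat1 moved 4 of 84 means by more than 1 SD, all in Fyn-KO (Efnb1 180.1, Plxna1 49.9, Plxna4 37.3, Plxnc1 19.9). In WT, 3 counts come to at most 0.252 CPM, and each fold of a higher member rests on 11 or fewer WT counts.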
